A study of Drosophila melanogaster with 12 samples.

Results

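The genes described here are 48 protein-coding genes of Drosophila melanogaster that the deposited table lists only by an annotation number, the CG number that the fly genome project gives to a predicted gene before it has a name. They were chosen on their RNA levels in these same libraries. Each was lower by at least 1 on the log2 scale in wisp mutant than in wild type activated eggs in both same-numbered replicate pairs, and did not reach that difference in at least 1 of the 2 pairs of mature oocytes. The 48 members come from 2085 annotation-number genes and from 5421 genes in all. The rule leaves out 8 genes by name, 1 of which would have met it, and 104 genes with names meet the same criteria. RefSeq now gives a symbol that is not an annotation number to 14 of the 48 members. All levels are the authors' normalised read counts, and all differences are log2(value + 1) of the wisp mutant minus wild type, so that a negative difference means a lower level in the mutant.

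The series measured total RNA after removal of ribosomal RNA in 12 libraries, 2 biological replicates for each of 6 groups. The mutant carried wispKG5287, which the labels call a null allele, and was compared with the wild type strain w1118. The labels do not say whether mutant females carried 1 or 2 copies of it. Each genotype was sampled as immature oocytes of oogenesis stages 9 to 10, mature oocytes of stage 14, and activated, unfertilized eggs collected 0 to 1 h after laying. Oocytes were dissected by hand from females aged 3 to 4 days. For the eggs, the protocol describes w1118 virgin females mated to males made sterile by having tud1 mothers, and does not separately describe matings of the mutant. Spike-in RNA was added in equal amount to each sample, but 0 spike-in rows are in the table used here.

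Wispy belongs to the cytoplasmic poly(A) polymerases and extends the poly(A) tails of stored maternal mRNAs in late oogenesis and at egg activation. An oocyte near maturity makes little RNA of its own, and the egg relies on mRNAs that the nurse cells supplied until the embryo starts to transcribe. In this period a long tail is generally linked to translation and stability, and a short tail to repression or decay. Tail length was not measured in these libraries.

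The highest library sum was 14089899 (mutant eggs, replicate 2) and the lowest 11081267 (wild type mature oocytes, replicate 1), and sequencing depth is unknown. No listed value was under 100.07, which means that genes below 100 in any library are absent. Replicates of a group correlated over all genes at 0.858 in mutant and 0.828 in wild type immature oocytes, at 0.994 and 0.993 in mutant and wild type mature oocytes, and at 0.914 and 0.957 in mutant and wild type eggs. The wisp transcript itself was at 718 and 249 in mutant and 10195 and 3623 in wild type immature oocytes. It was at 249 and 259 in mutant and 7811 and 9722 in wild type mature oocytes, and at 189 and 397 in mutant and 7301 and 17226 in wild type eggs. Of 20 germline markers 19 were listed, whereas 0 of 20 follicle cell, 0 of 7 muscle and 0 of 5 fat body markers were, so levels of other ovarian cell types cannot be read from the table.

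In activated eggs the members were at a median of 45.5% of the wild type level in pair 1 and 31.1% in pair 2. By the mean log2 difference the lowest member was CG9674, the glutamate synthase that makes glutamate from glutamine, at 30.8% and 17.9% of the wild type egg level. The median log2 difference of the members was -1.14 in pair 1 and -1.68 in pair 2, against -0.08 and -0.27 over all genes. Pair 2 showed the lower value for 46 of the 48 members, and for 70.1% of all genes. The limma fit over all genes called 46 members lower and 0 higher in mutant eggs at a Benjamini-Hochberg adjusted p under 0.05, where 17.7% of all genes were called lower and 7.3% higher. In all 48 both mutant egg libraries lay below both wild type ones, as they did in 38.9% of all genes, and 6.18% of all genes reached -1 in both egg pairs. The egg libraries chose the members, so this count describes the choice and tests nothing. The 2 members not called were CG8677 and CG5521. The values are relative levels from a normalisation that no source used here names, so they do not give amounts per egg. Nor can pooled material tell a lower level in every egg from a smaller share of eggs holding the transcript.

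**Figure D1:**
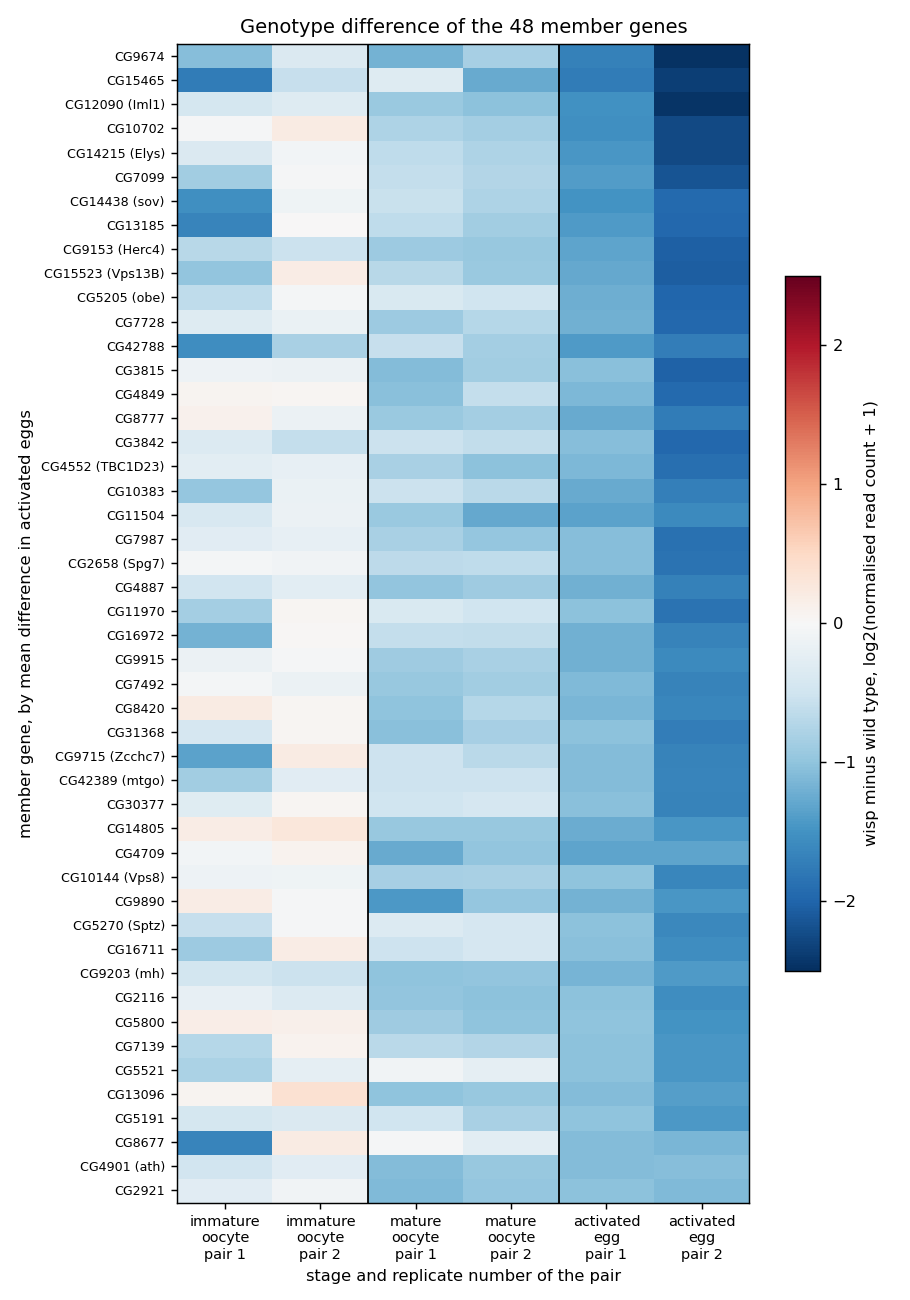
Log2 difference, mutant minus wild type, of each of the 48 members (rows, ordered by the mean difference in eggs) in the same-numbered pairs of immature oocytes, mature oocytes and activated eggs (columns). The egg columns lie at or below -1 by choice, the mature columns lie below 0 throughout, and the immature columns are mixed, with a members' median of -0.43 in pair 1 and -0.08 in pair 2.

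The threshold cut through a continuous range of values. Just inside it were CG10144 (Vps8), CG5800 and CG5191, each at -1.01 in the egg pair nearer to 0. Just outside it were CG8370 at -0.9977 and -1.66 in the egg pairs, CG1718 at -0.99 and -1.59, and CG12301 at -1.08 and -0.99.

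A description of the members as low only in mutant eggs goes against the mature oocyte values. All 48 members were below wild type in both pairs of mature oocytes, and for all 48 both mutant libraries lay below both wild type libraries; 39.9% of all genes showed such a separation in that direction. The median difference in mature oocytes was -0.81 in pair 1 and -0.83 in pair 2, against -0.04 and -0.03 over all genes. Members therefore stood at a median of 57.0% and 56.3% of the wild type mature level. For 15 members 1 of the 2 mature pairs had itself reached -1, and only the other pair kept the gene within the rule. Of all genes 5.11% reached -1 in both mature pairs, which the rule does not allow in a member. The share of all genes that reached it in only 1 mature pair was not counted, so the 15 have no background here. The fit called 16 members lower and 0 higher in mature oocytes, beside 9.37% of all genes called lower and 0.683% called higher. The mature libraries also entered the rule, which capped the difference there, so nothing is read from that count.

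**Figure D2:**
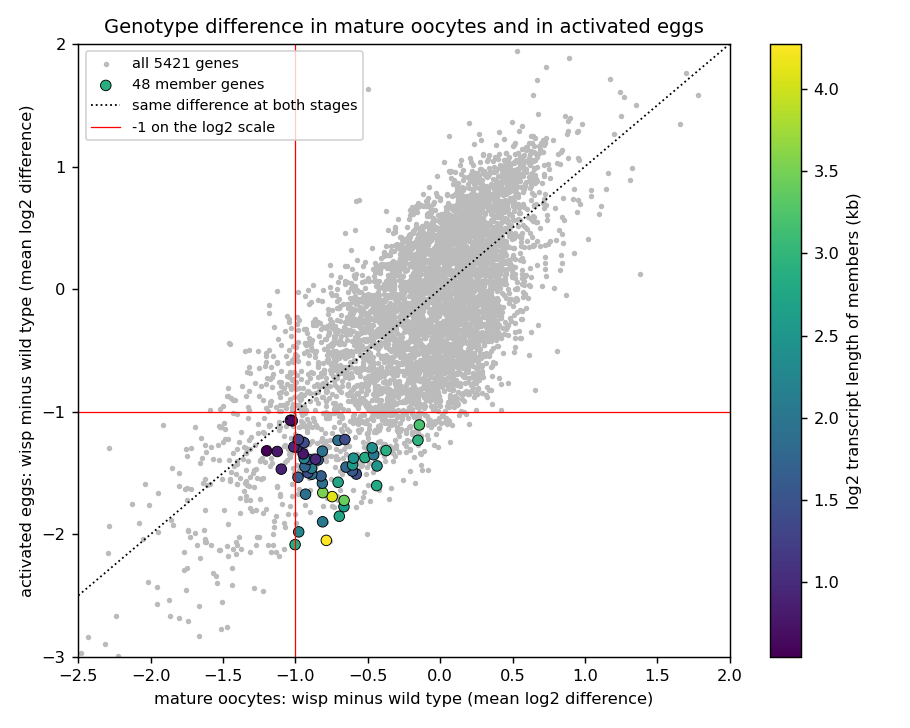
Mean log2 difference, mutant minus wild type, in mature oocytes (horizontal axis) and in activated eggs (vertical axis) for the 48 members and for the other genes of the table; 13 genes beyond the axes, wisp among them, are not drawn. The members spread along the mature axis up to -0.14 while their egg means lie between -2.09 and -1.07.

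The members differed in how much of the egg difference was already present in mature oocytes. For 10 members the egg mean lay less than 0.4 below the mature mean, and these had a median of -1.02 in mature oocytes and -1.29 in eggs. For 16 members the further drop was 0.4 to 0.8, with medians of -0.87 in mature oocytes and -1.42 in eggs. For the other 22 members the further drop was over 0.8, with medians of -0.63 in mature oocytes and -1.54 in eggs. The least further drop belonged to CG2921 at -0.04, CG4901 (ath) at -0.05 and CG9890 at -0.12. The greatest belonged to CG15465 at -1.26, CG5205 (obe) at -1.16 and CG14215 (Elys) at -1.16. The difference between the egg and the mature contrast was itself called for 0 of 5421 genes by limma. At an unadjusted p under 0.05 it counted 9 members and 8.19% of all genes. This contrast is close to the rule itself, so its counts describe the members and test nothing. With 0 genes called, no single member can be said to have a larger genotype difference in eggs than in mature oocytes.

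CG4901 (ath) shows the first of these shapes. It was at 639 and 788 in mutant and 1359.9 and 1531 in wild type mature oocytes. In eggs it was at 657 and 650.4 in mutant and 1394 and 1364 in wild type. The replicates lay close and the genotypes were about equally far apart at both stages. The log2 difference was -1.02 ± 0.19 in mature oocytes and -1.08 ± 0.19 in eggs (SE from the limma fit, 2 libraries per group). Each SE of the fit pools the spread of all 6 groups and is not that of a single stage. CG9890 was at 162 and 204 in mutant and 441 and 398 in wild type mature oocytes, and at 198 and 142 in mutant and 448 and 394 in wild type eggs. Its mutant libraries were again below the wild type libraries by about the same amount at both stages, with an egg mean of -1.32.

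CG8677 and CG5521 show the opposite shape. CG8677, whose RefSeq synonym is that of the chromatin remodelling subunit Rsf, was at 3369 and 3067 in mutant and 3447 and 3659 in wild type mature oocytes. In eggs it was at 1877 and 3030.3 in mutant and 3962 and 6679 in wild type. The genotypes were nearly level in mature oocytes and apart in eggs, where replicates of each genotype also differed, and its egg difference was -1.11 with an adjusted p of 0.102 by limma. CG5521 was at 2157 and 2239.6 in mutant and 2289 and 2613 in wild type mature oocytes. In eggs it was at 1251 and 1659 in mutant and 2534 and 4534 in wild type, a difference of -1.23 with a limma adjusted p of 0.0604. The mutant and wild type egg libraries did not overlap for either gene.

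**Figure D3:**
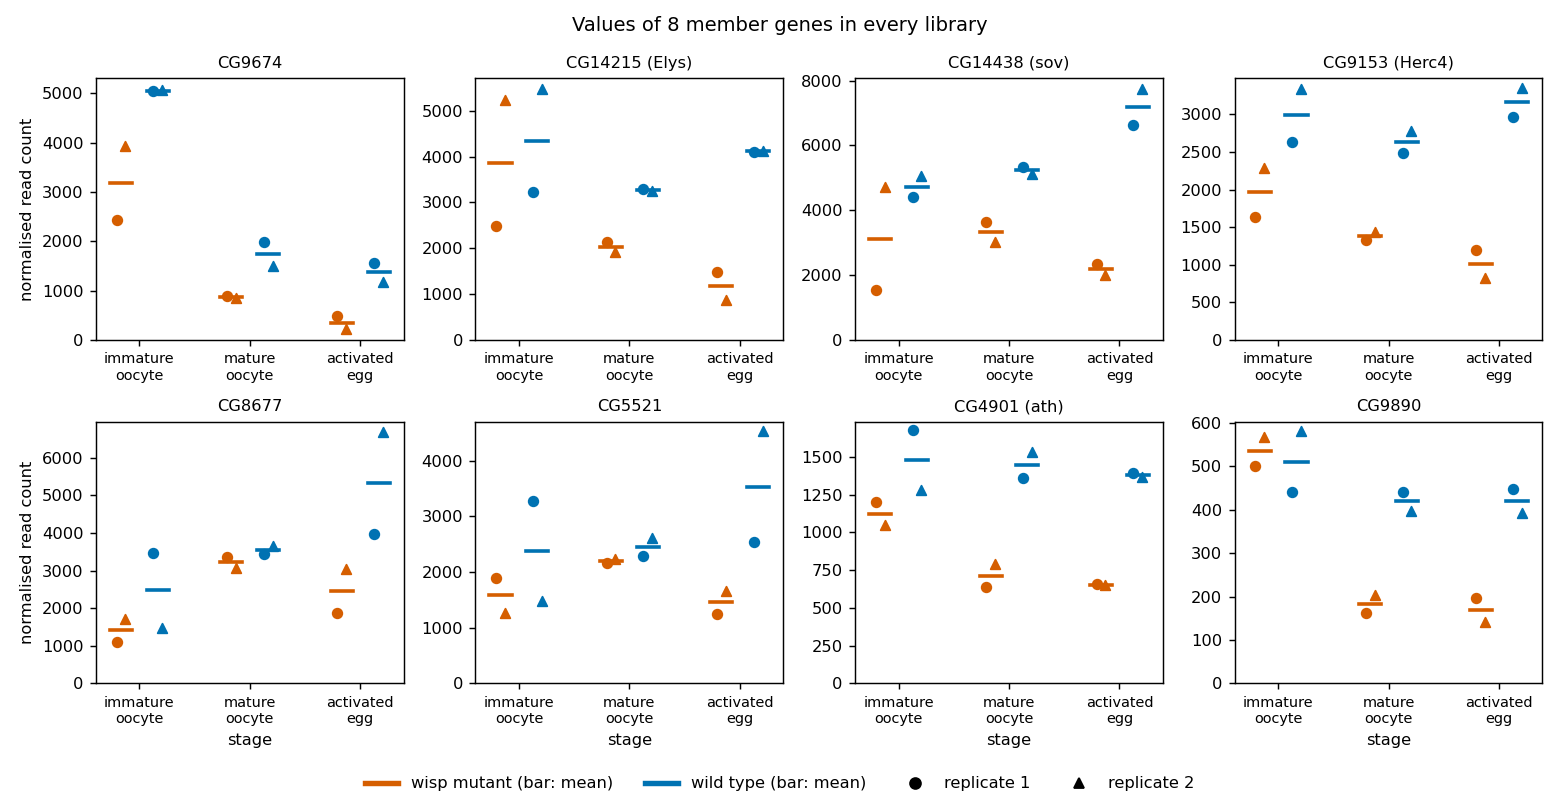
Normalised read counts (vertical axes, linear scale) of 8 members in each library of the mutant (left of each stage) and of wild type (right), by stage, with points for single libraries and a bar for the mean of 2. For CG4901 and CG9890 the genotypes are as far apart in mature oocytes as in eggs, and for CG8677 and CG5521 they are close in mature oocytes and apart in eggs.

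A known role could be given to 20 members from their RefSeq symbols or synonyms, and these were put in 4 groups after their values had been seen. Calls named within the groups come from mature and egg contrasts, whose libraries entered the rule. They are a description and do not set the called members apart from the others. Of all genes 9.37% were called lower in mature oocytes and 17.7% in eggs. The lowest egg median of the 4 was that of metabolism and protein turnover. CG9674, the glutamate synthase named above, was at 880.1 and 840.2 in mutant and 1991 and 1492 in wild type mature oocytes, and at 481 and 212 in mutant and 1561 and 1180.3 in wild type eggs. All mutant values lay below all wild type values of the same stage. Iml1 (CG12090) encodes a subunit of the GATOR1 complex, which restrains growth signalling through the TOR kinase when amino acids are scarce. It was at 366 and 349 in mutant and 694 and 716 in wild type mature oocytes, and at 284 and 183 in mutant and 816 and 999.9 in wild type eggs. The difference was -0.98 ± 0.25 in mature oocytes and -1.98 ± 0.25 in eggs (SE). Herc4 (CG9153), a ubiquitin ligase, was at 1191 and 819 in mutant and 2965 and 3352 in wild type eggs. In mature oocytes Herc4 was at 1327 and 1433 in mutant and 2489 and 2777 in wild type, again without overlap. Spg7 (CG2658), a protease of the inner mitochondrial membrane, was at 948 and 582 in mutant and 1983 and 2086 in wild type eggs. The medians of the 4 genes were -0.95 in mature oocytes and -1.83 in eggs.

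The 6 members of chromatin and the nucleus had a median of -0.68 in mature oocytes and -1.63 in eggs. Elys (CG14215) encodes a nucleoporin that starts the assembly of nuclear pores on chromatin. It was at 2127 and 1915 in mutant and 3287 and 3258 in wild type mature oocytes, and at 1490.3 and 868 in mutant and 4102 and 4122 in wild type eggs. The wild type egg replicates were nearly equal while the mutant ones differed, and no libraries overlapped. The zinc finger protein encoded by sov (CG14438) is known for silencing of heterochromatin in the ovary. It was at 3625 and 3005 in mutant and 5334 and 5126 in wild type mature oocytes, and at 2351 and 2004 in mutant and 6639 and 7755 in wild type eggs. The egg means were 2178 ± 245 in mutant and 7197 ± 789 in wild type eggs (SD, n = 2 each), and no other member had a higher wild type egg mean.

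CG7099, which carries the synonym of the largest subunit of the RNA polymerase III factor TFIIIC, was at 285 and 204 in mutant and 756 and 909 in wild type eggs. Its mature values were 338 and 299.9 in mutant and 514 and 497 in wild type. CG3815, with the synonym of the PHD finger protein Pf1 of a histone deacetylase complex, was at 628 and 407 in mutant and 1299 and 1658 in wild type eggs. The maternal haploid gene mh (CG9203) encodes a DNA repair protease that the egg needs to keep the paternal chromosomes. It was at 315 and 340.4 in mutant and 629.6 and 675 in wild type mature oocytes, and at 273 and 274 in mutant and 609 and 737 in wild type eggs. Among the 6 genes of this group mh was called lower in mature oocytes, and CG8677, described above, was the one not called in eggs.

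The 6 members of RNA processing and ribosome assembly had a median of -0.86 in mature oocytes and -1.45 in eggs. CG7728 carries the synonym of BMS, in yeast a GTPase needed to build the small ribosomal subunit. It was at 1123 and 1260.1 in mutant and 2120.4 and 2064 in wild type mature oocytes, and at 1164 and 737 in mutant and 2679 and 2880 in wild type eggs. CG13096, with the synonym of a yeast factor of ribosome assembly, was at 974 and 1111 in mutant and 1958 and 2154 in wild type mature oocytes. In eggs CG13096 was at 975 and 952 in mutant and 2062 and 2471 in wild type, so that its mutant level was about the same at both stages. CG5800, a putative RNA helicase, was at 610 and 637 in mutant and 1128 and 1272 in wild type mature oocytes, and at 678 and 494 in mutant and 1366 and 1397 in wild type eggs. CG13096 and CG5800 were the members of the group called lower in mature oocytes.

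CG4849 carries the synonyms of a spliceosomal GTPase and was at 633 and 347 in mutant and 1371 and 1331 in wild type eggs. CG8777, with the synonym of a scaffold that in yeast joins the cytoplasmic exosome, an RNA-degrading complex, was at 209 and 128 in mutant and 505 and 435 in wild type eggs. The value of 128 was the lowest of any member in any library. In all, 4 members had a value under 200 in some library, and genes with a value under 100 in any library are not listed. Zcchc7 (CG9715), a zinc knuckle protein whose human and yeast relatives serve nuclear RNA decay, was at 1630 and 1822 in mutant and 3452 and 5829 in wild type eggs.

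The 4 members of membrane traffic had a median of -0.81 in mature oocytes and -1.41 in eggs. Vps13B (CG15523), of a family that moves lipids between organelles, was at 839 and 589 in mutant and 1351 and 1128 in wild type mature oocytes. In eggs Vps13B was at 601 and 383 in mutant and 1453 and 1589 in wild type. Vps8 (CG10144), a subunit of an endosomal tethering complex, was at 448 and 538 in mutant and 793 and 940.1 in wild type mature oocytes, and at 476 and 278 in mutant and 958 and 867 in wild type eggs. TBC1D23 (CG4552), whose human counterpart links endosome carriers to the Golgi, was at 487 and 490.3 in mutant and 853 and 995 in wild type mature oocytes. It was the member of this group called lower in mature oocytes, and in eggs it was at 414 and 304 in mutant and 901 and 1118 in wild type. Sptz (CG5270) was at 1810.4 and 1659.8 in mutant and 2285 and 2209 in wild type mature oocytes, and at 1210.1 and 731 in mutant and 2456 and 2239 in wild type eggs. The 4 role groups had mature medians between -0.95 and -0.68 and egg medians between -1.83 and -1.41, and their ranges overlapped throughout.

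The other 28 members have no role given here. The highest level among them was that of CG13185, whose coding sequence of 16578 nt is the longest of the members. It was at 3677 and 2558 in mutant and 5702 and 4643 in wild type mature oocytes, and at 2726 and 1728 in mutant and 7275 and 6778 in wild type eggs. CG7987 was at 1721 and 1092 in mutant and 3585 and 3980 in wild type eggs. CG30377 was at 1209 and 868 in mutant and 2481 and 2759.7 in wild type eggs. CG10702 was at 560.2 and 625 in mutant and 958 and 1128 in wild type mature oocytes, and at 371 and 377 in mutant and 1079.7 and 1811 in wild type eggs. Its 2 mutant egg libraries were almost equal and the spread lay in wild type. Among members with a current symbol but no role given here, obe (CG5205) was at 812 and 497 in mutant and 1901 and 1963 in wild type eggs, and mtgo (CG42389) at 719 and 795 in mutant and 1532 and 2512 in wild type eggs.

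Per length of transcript the members' levels spanned a wide range. In mutant eggs the mean normalised read count per kb had a median of 154 and was highest for CG13096 at 393. In wild type eggs it ran from 53.4 for CG15465 to 925 for CG13096, with a median of 412. The gene model of CG15465 has a transcript of 19353 nt, of which 14896 nt are 3′ untranslated, and its exons overlap those of rg, so its length and its reads are uncertain. Leaving that gene aside, CG8777 had the lowest wild type level per kb at 124.

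The immature oocyte libraries did not enter the rule, and the comparison of genotypes there is the one test here that does not reuse the values that chose the members. The fit called 0 of 48 members in either direction by limma, beside 0.0738% of all genes called lower and 0.0369% called higher. At an unadjusted p under 0.05 there were 6 members, 12.5% of them, against 6.88% of all genes. The median difference of the members was -0.43 in pair 1 and -0.08 in pair 2, while over all genes it was 0.01 and 0.03. With the length trend of all genes taken out of each library, the median of the pair means was -0.14 in place of -0.31, and 34 members in place of 40 lay below 0. Of the members 29 were below wild type in both pairs (60.4%), compared with 27.8% of all genes. So were 71.2% of the named genes that meet the same criteria and 57.8% of the annotation-number genes low in both mature pairs. For 10 members both mutant libraries lay below both wild type libraries, where 7.78% of all genes did. No member reached -1 in both immature pairs, and 0.369% of all genes did. These counts rest in part on replicate 1 of mutant immature oocytes: without it the members' median was -0.0011 and 25 of 48 lay below 0.

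CG42788 had the largest immature difference. It was at 296 and 351 in mutant and 867 and 619 in wild type immature oocytes, without overlap, a log2 difference of -1.18 ± 0.25 (SE) with a limma adjusted p of 0.144. With a replicate block within each stage CG42788 and CG15465 were called lower, beside 2.91% of all genes. With the length trend removed as well, the call of CG15465 was lost (limma adjusted p of 0.141). The level of CG42788 in mutant mature oocytes was 719 and 736, and CG42788 was the one member called higher in mutant mature than in mutant immature oocytes. Its wild type level was also higher in mature than in immature oocytes, at 1066 and 1320 in mature oocytes, a change that was not called. CG15465 was at 508 and 913 in mutant and 1697 and 1355 in wild type immature oocytes, a difference of -1.15 ± 0.35 (SE) with a limma adjusted p of 0.413. For CG13185, sov and CG8677, the other 3 of the 5 lowest, replicate 1 made the difference. CG13185 was at 2755 and 9927 in mutant and 8603 and 9899 in wild type immature oocytes, so that the pairs differed by -1.64 and 0.00. The sov transcript was at 1528 and 4724 in mutant and 4402 and 5056 in wild type immature oocytes, and CG8677 at 1106 and 1711 in mutant and 3478 and 1482 in wild type.

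At the other end were members with a mutant level at or above that of wild type in immature oocytes. CG14805 was at 1313 and 1340.2 in mutant and 1160.5 and 1094 in wild type immature oocytes, at 629.5 and 694 in mutant and 1208 and 1344 in wild type mature oocytes, and at 526 and 482 in mutant and 1238 and 1324 in wild type eggs. The wild type level of CG14805 was thus nearly the same at all 3 stages, and the mutant level was lower at the 2 later ones. CG13096, at 2419 and 2179 in mutant and 2321 and 1664 in wild type immature oocytes, had a mean difference of 0.22. CG5800, CG8420 and CG10702 had mean differences of 0.15, 0.13 and 0.08. None of these 5 was called in immature oocytes by limma, and CG14805 had the lowest adjusted p of them at 0.832. CG14805 was the one member called for a genotype difference that differed between mature and immature oocytes, by -1.18 ± 0.21 (SE) with a limma adjusted p of 0.0447, where 1.03% of all genes were called in that direction. At an unadjusted p under 0.05 there were 15 members and 11.9% of all genes, and the same quantity was -1.28 for CG9890 and -1.21 for CG13096, with limma adjusted p-values of 0.0901 and 0.0977. Its mature libraries entered the rule, its exons overlap those of CG14818, and the call was lost in each fit that left out 1 of the 12 libraries, where the adjusted p ran up to 0.279.

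Along the 3 stages the mean difference stepped down from immature to mature oocytes and again to eggs in 41 of the 48 members and in 23.1% of all genes. The egg mean lay below the mature mean in all 48 and in 52.0% of all genes. The rule asks for a low value in both egg pairs and a higher one in a mature pair, so it largely fixes the step between mature oocytes and eggs. Set against the mean of wild type mature oocytes, the members' median level was -0.39 and -0.00 in the replicates of mutant immature oocytes, -0.90 and -0.79 in mutant mature oocytes and -1.06 and -1.39 in mutant eggs on the log2 scale. In wild type it was -0.00 and 0.11 in immature oocytes, -0.03 and 0.03 in mature oocytes and 0.15 and 0.34 in eggs. Between mature oocytes and eggs the median was thus lower in the mutant and higher in wild type. In the mutant 36 members were lower in eggs than in mature oocytes in both same-numbered pairs, and in wild type 36 were higher, and 27 members did both. Of all genes 28.8% were lower in both pairs in the mutant and 28.5% were higher in both pairs in wild type. The share of all genes that did both was not counted, so nothing is read from the 27.

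**Figure D4:**
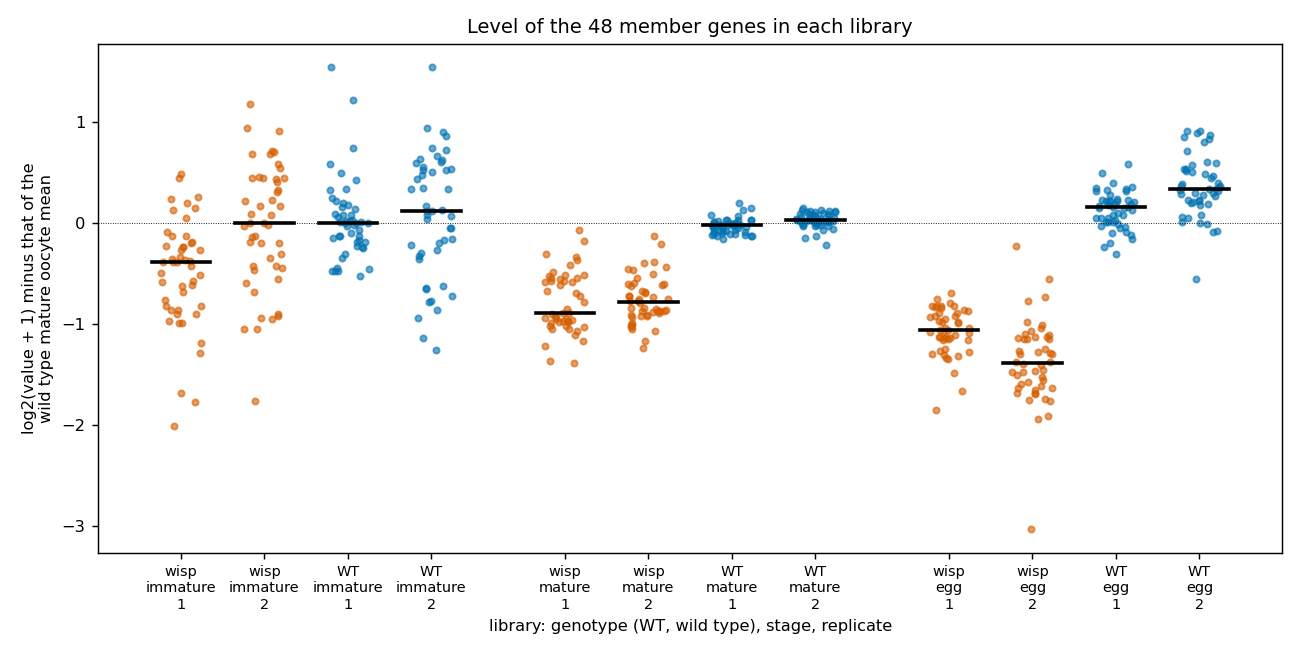
Log2 level of each of the 48 members relative to its mean in wild type mature oocytes, by library, with mutant libraries left of wild type libraries at each stage and the median of the members marked. The medians of the mutant libraries lie at -0.90 and -0.79 in mature oocytes and at -1.06 and -1.39 in eggs, and those of wild type eggs at 0.15 and 0.34.

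These within-genotype values share libraries with the rule and are given as a description. Between mutant mature and mutant immature oocytes the fit called 13 members lower and 1 higher, beside 11.4% of all genes called lower and 1.68% higher. The lower ones included CG9890 with -1.55 ± 0.21 (SE), CG5800 with -1.27 ± 0.20 and CG13096 with -1.14 ± 0.21. CG9674 was called as well, at 880.1 and 840.2 in mutant mature against 2428 and 3939.7 in mutant immature oocytes. Its wild type values were also lower, at 1991 and 1492 in mature against 5054 and 5062 in immature oocytes. Between wild type mature and immature oocytes limma called 0 members and 0.0% of all genes, with 6 members and 9.63% of all genes at an unadjusted p under 0.05. Between eggs and mature oocytes it called 0 members in either genotype, where 0.0184% of all genes were called lower in the mutant and 0.0553% in wild type. At an unadjusted p under 0.05 that step counted 7 members and 5.53% of all genes in the mutant, and 1 member and 3.04% of all genes in wild type.

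The members had longer transcripts than most genes of the table, a property the rule did not use. The median length of the canonical transcript was 3778.5 nt in the members, 1920.5 nt in the other annotation-number genes and 2192.5 nt in all genes. The coding sequence had a median of 2968.5 nt in the members, 1329 nt in the other annotation-number genes and 1500 nt in all genes. The 3′ untranslated region had a median of 244 nt in the members, 264.5 nt in the other annotation-number genes and 308 nt in all genes. Of the members 22 were longer than 4 kb (45.8%), compared with 19.7% of all genes. Named genes that meet the same criteria were longer still, with a median of 5231 nt. The 116 annotation-number genes that were low in both mature pairs had a median of 1935.5 nt.

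Length moved with the genotype difference over the whole table. Over all genes Spearman's correlation of length with the egg difference was -0.48 in pair 1 and -0.57 in pair 2, with that in immature pair 1 -0.67, and with the mature and the other immature pair between -0.03 and 0.09. These are correlations across genes within the same libraries, and genes are not independent replicates. In the longest genes, from 4866 nt, the median egg difference of all genes was -0.76 and that of the 17 members -1.58. In genes of 1413 to 2192 nt it was 0.00 over all genes and -1.32 in the 7 members, and genes of up to 1412 nt held 0 members. Within every length class that held members their egg median lay lower than that of all genes, which the rule itself brings about. The part of transcript length, or of what goes with it, in the members' values was not tested.

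**Figure D5:**
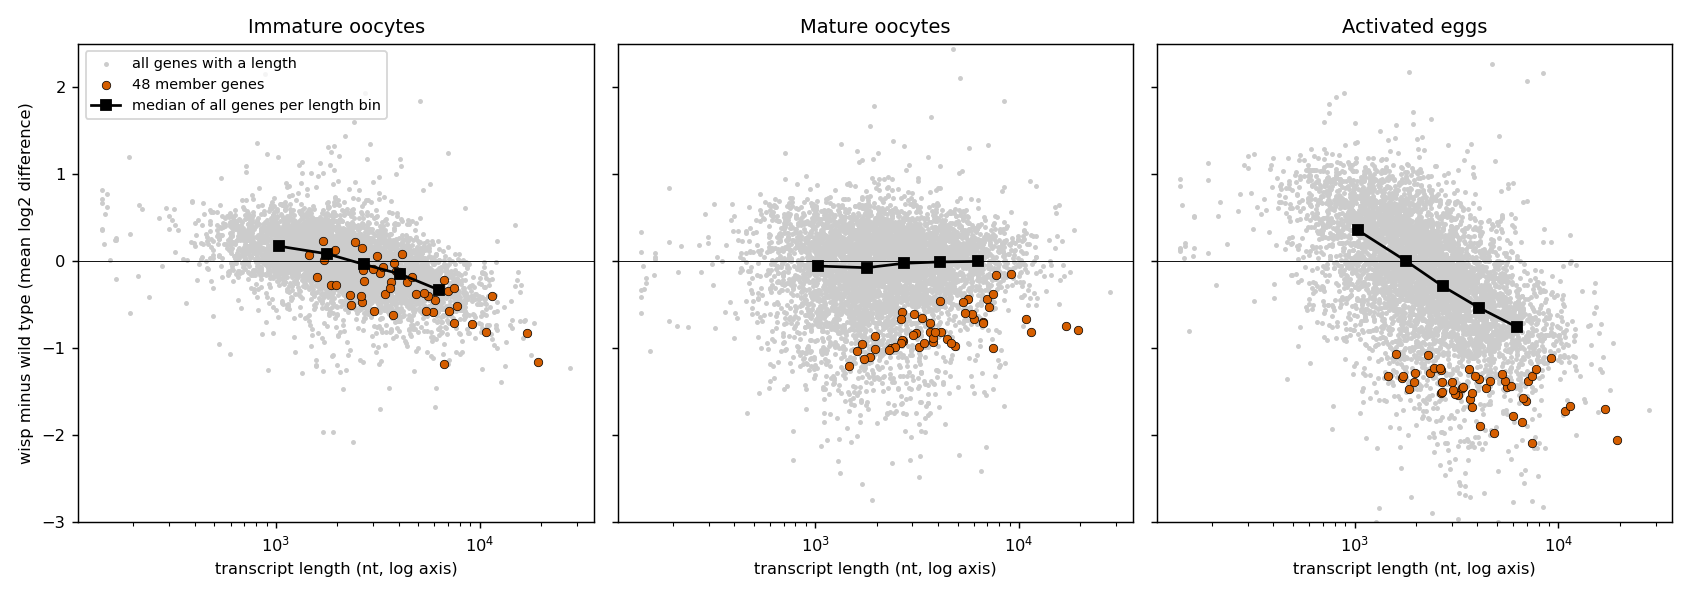
Mean log2 difference, mutant minus wild type, against the length of the canonical transcript (log scale) in immature oocytes, mature oocytes and activated eggs, for the 48 members and the other genes with a length. Genes beyond the vertical axis are not drawn, 2 in the immature, 4 in the mature and 6 in the egg panel. The members lie below the median of all genes of their length in eggs, and in mature oocytes the long members lie nearer to 0 than the short ones.

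Among the members, length also went with the shape over the stages. The 10 members with a further drop under 0.4 had a median length of 1914 nt, the 16 with 0.4 to 0.8 had 3532.5 nt and the 22 with over 0.8 had 6667.5 nt. The 5 shortest members, CG9890, CG2921, CG14805, CG4709 and CG11504, were all in the first of these classes. CG11504 was at 397 and 363 in mutant and 756 and 876 in wild type mature oocytes, and at 337 and 314 in mutant and 859.7 and 947 in wild type eggs. CG4709 was at 136 and 194 in mutant and 326 and 388 in wild type mature oocytes, and at 142 and 173 in mutant and 358 and 435 in wild type eggs. Most of the egg difference of these short genes was already present in mature oocytes. In mature oocytes the longest class of members had a median of -0.61 and the class of 1413 to 2192 nt a median of -1.03, although the all-gene medians of these classes were -0.00 and -0.07. Across the 48 members Spearman's correlation of length with the difference was 0.65 and 0.45 in the mature pairs, and -0.25 and -0.53 in the egg pairs. In the immature pairs it was -0.73 and 0.00. The rule set an upper bound in eggs and a lower bound in 1 mature pair, which limits these values from both sides. After a smooth length trend over all genes was taken out of each library, 42 genes met the rule, 21 of them among the 48. The members kept had a median length of 2674 nt and the 27 lost had a median of 5454 nt.

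The members lay on all large chromosome arms, with 11 on X, 11 on 2L, 5 on 2R, 9 on 3L and 12 on 3R. The share on X was 22.9%, against 18.3% of all genes. Only 4 pairs of members lay within 100 kb of each other, each with other listed genes between them. CG9674 (chr3L:16787573-16807731) and Zcchc7 (chr3L:16845386-16852350) were 37.7 kb apart, with 2 listed genes between. CG3815 and CG3842 on X were 38.8 kb apart, CG4552 and CG4887 on 2L 40.6 kb, and CG15523 and CG11504 on 3R 49.7 kb. Coordinates and gene models are those of the BDGP6 annotation. Exons of 13 members overlapped those of another gene (27.1%), against 42.7% of all genes. The library kit does not mark strand, so reads of such pairs cannot be told apart. Among these members are CG7099, which overlaps RpL24, mh, which overlaps Alg14, and CG16972, which overlaps Edem2.

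The other genes of tail control were followed as context for wisp. The list held 29 genes, 27 of which were in the table, and it contained deadenylase subunits, cleavage and polyadenylation factors and regulators of maternal translation. In immature oocytes 0 of the 27 were called. In mature oocytes 4 were called lower, the mutated gene wisp included, and 0 higher, beside 9.37% of all genes called lower. They were wisp at -5.10, Rga at -1.57, CstF-50 at -1.28 and Not11 at -1.18. Rga and Not11 encode subunits of the CCR4-NOT deadenylase, and CstF-50 a cleavage factor. In eggs 7 were called lower and 0 higher, beside 17.7% of all genes called lower, with wisp at -5.35, Rga at -2.31, Not1 at -1.43, CstF-50 at -1.27, Not10 at -1.19, Cpsf160 at -1.12 and BicC at -1.05. The median of the list was -0.03 in mature oocytes and -0.32 in eggs, against -0.03 and -0.16 over all genes.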

How the data were processed

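RNA was sequenced in 12 libraries of 6 groups, 2 per group, grouped by genotype and stage per the labels. What the authors deposited is a normalised read count per transcript record and library (a signal of 0 or more, not whole numbers), with 5422 records. One identical duplicate was removed, which left 5421. Tools named in the submitters' processing notes are RSEM 1.2.25, STAR 2.4.2a and HTSeq, with the build dm6 and without their roles, and no source used here names the normalisation. Per the labels' protocols, RNA was extracted with TRIzol, depleted with Ribo-Zero and made into libraries with a TruSeq kit that does not mark strand. Since depth is unknown, no counting interval is given.

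Values were analysed as log2(value + 1). All 12 libraries and all genes entered 1 limma model of the 6 groups (version 3.58.1 in R 4.3.3, with an intensity trend and no block), which left 6 residual degrees of freedom, and p-values were adjusted over all genes by the Benjamini-Hochberg method at 0.05. With 2 libraries per group, the error of each value draws mostly on the other groups, and the p-values measure the spread between these samples. RefSeq matched 5391 genes and the Ensembl BDGP6 annotation 5399. The code was tested on simulated data.

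The members and the gene lists were chosen with earlier results of these data known. Members in the text were those with the 10 lowest egg differences, the 10 highest wild type egg means (also among members with a current symbol), the 5 lowest and highest immature differences, the 5 longest and shortest transcripts, and the 3 nearest the threshold on either side. Others were added after their values were seen, to fill the role groups and to show counts of 5 or fewer. Role classes by words in RefSeq gene names found 0 members, because the reference table held symbols only, and the 4 role groups replaced them. Alternatives were other pseudocounts, scalings, a filter, fits with a replicate block or a length trend removed, other thresholds and leaving out each library.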

Additional observations from a re-analysis of the deposited data

Results flagged for a closer look

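CG14805 stood out because its difference between mutant and wild type was not the same at 2 stages. It was lower in mutant than in wild type mature oocytes by -0.95 and not in immature oocytes, where the difference was 0.24, so that the 2 differed by -1.18 on the log2 scale (-1.1815 unrounded, limma adjusted p of 0.0447). The mature libraries entered the rule that chose the gene. The difference kept its sign in all 23 other settings tried, between -1.26 and -1.05, and was called in 6 of them, with adjusted p from 0.0027 to 0.423. What lies behind it was not tested.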

How the results depend on the processing

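The members rest on a threshold in a continuous range. At -0.8 in place of -1 the rule gave 74 genes, 26 of them among the 48, and at -1.2 it gave 34, 21 of them shared. TMM scaling gave 49 genes with 44 shared, median-of-ratios scaling 34 with 27 shared, quantile normalisation 45 with 27 shared, and mutant and wild type replicates paired the other way round 66 with 37 shared. Taken relative to the median of all genes, an alternative chosen after seeing the data, 33 met it with 30 shared. The rule needs both pairs, so it could not be recomputed without a library. In eggs TMM, median-of-ratios and quantile scaling moved the median of all genes from -0.16 to 0.03, 0.04 and 0.04, and that of the members to -1.25, -1.23 and -1.15. The members' mature median of -0.81 became -0.77, -0.75 and -0.69 under these scalings and -0.85 with the length trend removed, with or without the block.

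Of the 46 members called lower in eggs, 15 were called without replicate 2 of wild type eggs and 25 without replicate 2 of mutant eggs, with up to 47 without another library, and 15 were called in all 25 settings. The members' egg median ran from -1.61 to -1.31 when single libraries were left out. The 16 called lower in mature oocytes became 0 under quantile normalisation, beside 43 of all genes called lower. In a fit of that stage alone they became 46, beside 1474 of all genes called lower. They became 0 without replicate 1 of mutant or replicate 2 of wild type mature oocytes, 1 without replicate 1 of wild type, 4 without replicate 2 of the mutant and at most 18 without another library, with a median from -0.89 to -0.79. In immature oocytes the count of members stayed at 0 without each library (0 to 0) while the median ran from -0.51 to -0.0011. Over all genes the 1355 calls in eggs became 497 under quantile normalisation and 476 in a fit of eggs alone, and ran from 203 to 1502 without single libraries. The 6 calls in immature oocytes became 13 under TMM, 14 under median-of-ratios, 2 under quantile scaling, 30 with the length trend removed and 0 in a fit of that stage alone, and ran from 0 to 6 without single libraries.

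The labels do not say whether same-numbered libraries were prepared together, and the main fit did not treat them as pairs. Deviations of same-numbered libraries correlated between genotypes at 0.849 in immature oocytes, 0.483 in mature oocytes and 0.771 in eggs, and between -0.938 and -0.31 for immature libraries against those of later stages. With a replicate block within each stage, 2 members were called lower in immature oocytes, CG15465 and CG42788, beside 2.91% of all genes. With the block and the length trend removed there were again 2, CG42788 and mh (CG9203), beside 3.39% of all genes. The block gave 36 members lower in mature oocytes, beside 19.2% of all genes, and 46 with the length trend removed as well, beside 23.3%. In eggs it gave all 48, CG8677 and CG5521 included, beside 34.5% of all genes. Over all genes it gave 2909 calls in eggs and 267 in immature oocytes, with the length trend removed 2474 and 291, and a block over all stages gave 2 calls in immature oocytes. The cause of these moves was not tested. The mean difference of 0 members in mature oocytes and 0 in eggs changed sign under any setting, but that of 27 did in immature oocytes. Without replicate 2 of wild type immature oocytes CG10702 was at -0.12 and CG13096 at -0.02, and without replicate 1 of mutant immature oocytes CG13185 was at 0.11.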
